A study of Mus musculus with 33 samples.

Results

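IGKV19-93, IGKV10-94, IGKV10-95 and IGKV10-96 are 4 of the 163 V genes counted at the mouse Igk light chain locus, and they lie within 104.8 kb of chromosome 6, with 3 unused VK genes between them. Their use was measured by VDJ-seq, which captures joined VK and JK segments from genomic DNA and records which VK gene each joint contains. The 4 genes were selected on their percentages in these same libraries, so their levels and fold changes are given as a description, and a call from the fit across all VK genes is given for them only to place them among the others and is no evidence of a change. Wapl is the factor that releases cohesin from DNA, and the question behind the comparison is whether its level matters for which VK genes recombine. The libraries came from pre-B cells of Wapl+/+ mice (4 libraries) and of Wapl ∆P1,2/∆P1,2 mice (4), and from pro-B cells of both genotypes (6 each), all ex vivo sorted from bone marrow of C57BL/6 animals of 4 to 5 weeks. The ∆P1,2 alleles lack a Pax5-binding site in the Wapl promoter and a second Pax5 site downstream of the gene in the germline, and the +/+ animals carry neither deletion. Among B220+ IgM- IgD- cells, pro-B cells were sorted as Kit+ CD25- and pre-B cells as Kit- CD25+. DNA reads of joints hold no marker genes, so the gates could not be checked here, and whether the libraries of a group came from separate mice is not said in the labels.

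A functional light chain gene is made when the RAG recombinase joins 1 VK segment to 1 JK segment. RAG cuts at a recombination signal sequence beside each segment, which has a heptamer next to the coding bases, a spacer and a nonamer, and the signals at VK genes have the short spacer of 12 bases. A VK gene that points the same way as the JK segments is joined by deletion of the DNA in between, and a VK gene that points the other way is joined by inversion. Rearrangement of Igk takes place mainly in pre-B cells and at a low level in pro-B cells.

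On mm9, IGKV19-93 occupies chr6:68686291-68686758 on the minus strand, IGKV10-94 chr6:68654502-68654972 on the minus strand, IGKV10-95 chr6:68630373-68630842 on the plus strand and IGKV10-96 chr6:68581959-68582424 on the minus strand. All 4 are classed as functional. For IGKV19-93 and IGKV10-94 the annotation gives a leader exon of 49 bases and a V exon of 295 and 298 bases. The span of IGKV10-96 falls within that of the gene named Gm16637 in the annotation (68581957 to 68582424), which has the same 2 exon lengths as IGKV10-94 and ends 2 bases further at the 3′ side. The annotation gives the name Igkv10-96 to another span, 68597993 to 68598115, which lies in IGKV2-95-2 of the gene list, and the position used here is that of the list. IGKV10-95 is annotated only by 1 exon of 287 bases. The intervals between neighbouring members were 31.3 kb, 23.7 kb and 47.9 kb, and the first JK segment lay 1.99 Mb from IGKV19-93 and 2.09 Mb from IGKV10-96. IGKV10-95 is the only member that points the same way as the JK segments, as do 77 of the 162 VK genes with coordinates.

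The end of each V segment and the signal at which it is cut are shown because all joints of a gene are made there. They are printed 5′ to 3′ on the coding strand from the mm9 genome, with the last 30 coding bases and the spacer in lower case and the heptamer and nonamer in capitals.
IGKV19-93: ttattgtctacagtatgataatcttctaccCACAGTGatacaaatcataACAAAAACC
IGKV10-94: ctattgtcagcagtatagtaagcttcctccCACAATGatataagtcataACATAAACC
IGKV10-95: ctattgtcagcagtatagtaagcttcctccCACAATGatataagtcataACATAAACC
IGKV10-96: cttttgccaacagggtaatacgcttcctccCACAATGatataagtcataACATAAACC

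The stretches lie at chr6:68686263-68686320, chr6:68654474-68654531, chr6:68630813-68630870 and chr6:68581929-68581986, in the same order. The signal of IGKV19-93 carries the consensus heptamer CACAGTG and the consensus nonamer ACAAAAACC, so that it matches at all 16 positions compared. Of 92 functional VK genes, 32 (34.8%) do so, 37 match at 15 positions and 23 at 14 or fewer. The 3 V10 genes have 1 and the same signal of 28 bases, which no other VK gene of the list shares. It matches at 14 of the 16 positions, with 6 of 7 bases in its heptamer CACAATG and 8 of 9 in its nonamer ACATAAACC. A heptamer other than the consensus stands beside 9 of the 92 functional genes, the 3 V10 genes among them, and 6 of the 9 have CACAATG. In Wapl+/+ pre-B cells IGKV19-93 was the most used of the 32 functional genes with a full consensus signal, whose median was 1.01% of VK-JK joints. The V10 genes were in places 1 (IGKV10-96), 3 (IGKV10-95) and 6 (IGKV10-94) among the 9 genes with another heptamer, whose median was 1.25%. These matches describe the letters only, and cutting at the signals was not measured.

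The V10 genes are close copies of each other. From the first base of the leader to the heptamer, IGKV10-94 and IGKV10-95 shared 97.0% of the aligned bases, IGKV10-94 and IGKV10-96 94.9%, and IGKV10-95 and IGKV10-96 93.4%, whereas IGKV19-93 shared 69.8% to 70.2% with each of them. Counted from the heptamer, the first difference between IGKV10-94 and IGKV10-95 is at base 83, and the last 295 bases hold 9 differences. IGKV10-96 differs from both at base 10. How reads that fit several VK genes were assigned is not stated, so a split of joints between IGKV10-94 and IGKV10-95 is less certain than one that sets either against IGKV10-96 or IGKV19-93. Values that were not whole multiples of the smallest value of the library, at a tolerance of 0.01 of that value, occurred for the 4 genes in 4 of the 20 libraries. They were IGKV10-94 and IGKV10-95 in Wapl+/+ pro-B replicate 5 and ∆P1,2 pro-B replicate 1, 3 of the 4 genes in ∆P1,2 pre-B replicate 3 and all 4 in Wapl+/+ pre-B replicate 4. Over all VK genes, every library held values that were not whole multiples of its smallest value above 0. IGKV4-52 and IGKV4-54, named after their values were seen, carried the same value in all 20 libraries. Whether reads were split between genes was not tested.

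The octamer ATTTGCAT is the element bound by Oct factors in light chain promoters, and it is shown to compare the 4 upstream regions. The windows are printed in coding direction with the octamer in capitals.
IGKV19-93: gatgaagctgATTTGCATgtgctgagatca
IGKV10-94: tttcccaaaaATTTGCATgctctcacttcc
IGKV10-95: agttcccaaaATTTGCATgctctcacttcc
IGKV10-96: gttcccaaaaATTTGCATgctctcacttcc

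The windows lie at chr6:68686837-68686866, chr6:68655046-68655075, chr6:68630270-68630299 and chr6:68582498-68582527. The octamer starts 98 bases before the first listed base of IGKV19-93 and 93 bases before that of each V10 gene. Within 150 bases before the start it was found in coding direction at 67 of the 92 functional genes (72.8%) and at 94 of all 162 VK genes (58.0%), and in the other direction at 0 functional genes. The 150 bases were 96.7% to 98.7% identical between the V10 genes and at most 53.8% identical between IGKV19-93 and a V10 gene. No H3K27ac peak, the mark of active enhancers and promoters, in the 1 deposited peak list, from pro-B cells of a Rag1(Cre/Cre) mouse, lay near the 4 genes. The nearest of its 17935 peaks was 1303 kb from IGKV19-93 and 1362 kb from IGKV10-96, and the median over all VK genes was 614 kb. Only 1 of the listed peaks lay between the first and the last VK gene. The paper describes an enhancer, E88, within the locus in pro-B cells, and its distance was not measured here. A missing peak therefore does not show that no enhancer lies near.

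Each deposited value was rescaled to a percentage of all VK-JK joints of its library. The smallest percentage above 0 was between 0.00177% and 0.0122% in the pre-B libraries and between 0.0145% and 0.610% in the pro-B libraries, so a pro-B value is given in coarser steps. Wapl+/+ pro-B replicate 2 was the sparsest, with 102 of 163 genes at 0 against 53 to 65 in the other pro-B libraries and 46 to 49 in the pre-B libraries. The number of sequences behind a value is not stated, and intervals that need it are not given. All 4 genes were above 0 in all 20 libraries. Before rescaling, the VK values of a pre-B library summed to between 4.87 and 6.77, and those of a pro-B library to between 0.0740 and 0.377, of a total that is not stated. A percentage therefore says how the joints were spread over the VK genes and not how many joints the cells had.

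Taken as a group, the 4 genes held 6.86% to 7.99% of the VK-JK joints in the 4 Wapl+/+ pre-B libraries and 9.51% to 12.3% in the 4 ∆P1,2 pre-B libraries. In pro-B cells they held 11.4% to 18.6% in the 6 Wapl+/+ libraries and 16.2% to 24.4% in the 6 ∆P1,2 libraries. The pre-B genotypes did not overlap, the pro-B genotypes did, and in either genotype every pro-B library lay above every pre-B library. IGKV19-93 was the most used of the 4 in all 20 libraries.

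**Figure D1:**
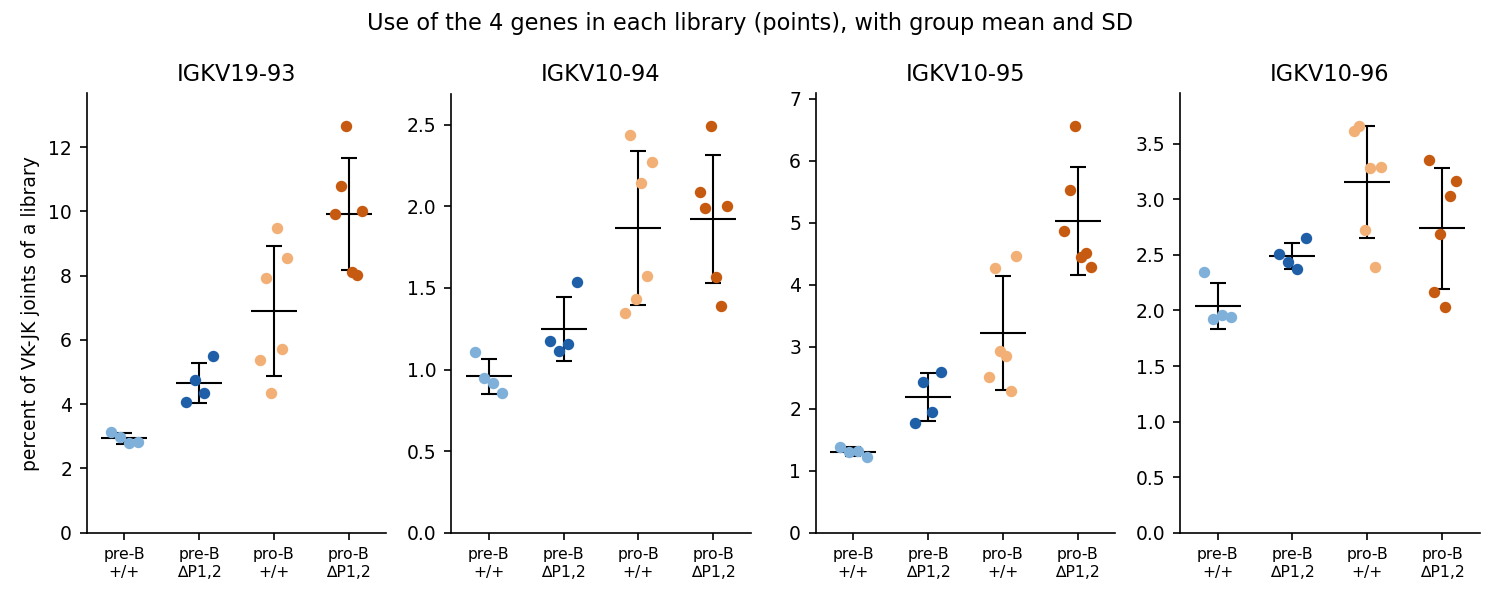
Percentages of VK-JK joints (vertical axes, each starting at 0 with its own scale) that contain each of the 4 genes, with 1 point per library, bars for the group mean and SD, and n = 4 for pre-B and 6 for pro-B groups. The group means increase from left to right for IGKV19-93, IGKV10-94 and IGKV10-95 and not for IGKV10-96, and the 2 pro-B groups overlap for all 4 genes.

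IGKV19-93, the member nearest to the JK segments, was used in 3.14%, 2.99%, 2.79% and 2.83% of the joints of the Wapl+/+ pre-B libraries (mean 2.94% ± 0.163, SD, n = 4). The ∆P1,2 pre-B libraries had 4.06%, 4.74%, 4.35% and 5.51% (4.66% ± 0.631, n = 4). No ∆P1,2 pre-B library was as low as a Wapl+/+ one. In pro-B cells the lowest, median and highest values were 4.36%, 6.83% and 9.49% in Wapl+/+ (6.90% ± 2.03, n = 6) and 8.04%, 9.96% and 12.7% in ∆P1,2 libraries (9.92% ± 1.73, n = 6). The pro-B genotypes overlapped, with 4 of 6 ∆P1,2 libraries above every Wapl+/+ library. It was the most used VK gene in all 6 ∆P1,2 pro-B libraries and the second, after the distal IGKV1-135, in all Wapl+/+ libraries of both stages. In ∆P1,2 pre-B cells it was second in mean use, also after IGKV1-135, and first in 1 library.

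IGKV10-95, the member in deletional orientation, had 1.39%, 1.30%, 1.32% and 1.22% in Wapl+/+ pre-B libraries (1.31% ± 0.0676, n = 4) and 1.78%, 2.44%, 1.95% and 2.59% in ∆P1,2 pre-B libraries (2.19% ± 0.388, n = 4). The 2 groups did not overlap. In pro-B cells the lowest, median and highest values were 2.29%, 2.89% and 4.47% in Wapl+/+ (3.22% ± 0.920, n = 6) and 4.29%, 4.69% and 6.56% in ∆P1,2 libraries (5.03% ± 0.869, n = 6). Here the groups overlapped in their outermost libraries, and 4 of 6 ∆P1,2 libraries lay above all Wapl+/+ libraries. By mean use the gene was in place 28 of all VK genes in Wapl+/+ pre-B cells, in place 5 in ∆P1,2 pre-B cells and in place 3 in pro-B cells of either genotype.

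IGKV10-96, the most distal member, was used in 2.35%, 1.92%, 1.96% and 1.94% of joints in Wapl+/+ pre-B libraries (2.04% ± 0.204, n = 4) and in 2.50%, 2.44%, 2.37% and 2.65% in ∆P1,2 pre-B libraries (2.49% ± 0.119, n = 4). These groups did not overlap, but the highest Wapl+/+ library, replicate 1, lay just below the lowest ∆P1,2 library. In pro-B cells the lowest, median and highest values were 2.39%, 3.29% and 3.66% in Wapl+/+ (3.16% ± 0.504, n = 6) and 2.03%, 2.86% and 3.36% in ∆P1,2 libraries (2.74% ± 0.543, n = 6). The pro-B groups overlapped, with 2 of 6 ∆P1,2 libraries below every Wapl+/+ library and none above. In place by mean use it went from 7 and 4 in the 2 pre-B groups to 4 in Wapl+/+ and 8 in ∆P1,2 pro-B cells.

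IGKV10-94 was the least used of the 4 in every library. It had 1.11%, 0.951%, 0.916% and 0.857% in Wapl+/+ pre-B libraries (0.959% ± 0.108, n = 4) and 1.18%, 1.11%, 1.16% and 1.54% in ∆P1,2 pre-B libraries (1.25% ± 0.196, n = 4). The pre-B groups just failed to meet, with 1.110% in the highest Wapl+/+ and 1.115% in the lowest ∆P1,2 library. In pro-B cells the lowest, median and highest values were 1.34%, 1.86% and 2.44% in Wapl+/+ (1.87% ± 0.473, n = 6) and 1.39%, 1.99% and 2.49% in ∆P1,2 libraries (1.92% ± 0.393, n = 6), which overlapped over nearly their whole range. By mean use it was in place 47 and 36 in Wapl+/+ and ∆P1,2 pre-B cells and in place 10 and 12 in pro-B cells.

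The order of the 4 levels was IGKV19-93, IGKV10-96, IGKV10-95 and IGKV10-94 in both pre-B groups, and IGKV10-95 stood before IGKV10-96 by mean in both pro-B groups. The ranges of neighbours in this order did not overlap in Wapl+/+ pre-B libraries. In ∆P1,2 pre-B libraries IGKV10-95 and IGKV10-96 overlapped, and in ∆P1,2 pro-B libraries IGKV10-96 and IGKV10-94 did. In Wapl+/+ pro-B libraries each pair of neighbours overlapped, and the means of IGKV10-95 and IGKV10-96, 3.22% and 3.16%, differed by less than either SD.

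Log2 fold changes were fitted with limma across all VK genes with a mean of at least 0.05% in the libraries compared, on the log2 of the percentage plus 0.05. A gene is called below at an adjusted p of 0.05 over all genes of that fit. In pre-B cells the log2 fold change of ∆P1,2 against Wapl+/+ was 0.65 (SE 0.085) for IGKV19-93, 0.36 (0.10) for IGKV10-94, 0.70 (0.10) for IGKV10-95 and 0.29 (0.077) for IGKV10-96, beside a median of −0.18 over the 107 genes tested. All 4 were called higher, as were 21.5% of the genes tested, and all 4 lay higher without overlap of the groups, as did 20.6%. By size of the log2 fold change they were in places 7 (IGKV10-95), 9 (IGKV19-93), 17 (IGKV10-94) and 19 (IGKV10-96). The experiment numbers in the labels fall into separate number series, which are no stated batch but which hold both genotypes. Within the 2 pre-B number series the ratio of the mean percentages was 1.43 and 1.75 for IGKV19-93, 1.56 and 1.79 for IGKV10-95, 1.16 and 1.29 for IGKV10-96, and 1.11 and 1.52 for IGKV10-94.

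In pro-B cells the log2 fold change of ∆P1,2 against Wapl+/+ was 0.56 (SE 0.19) for IGKV19-93 and 0.66 (0.18) for IGKV10-95, and these 2 were called higher, as were 12.5% of the 104 genes tested. It was 0.053 (SE 0.21) for IGKV10-94 and −0.21 (SE 0.17) for IGKV10-96, which were not called, beside a median of −0.26 over all genes tested. Centring each library on its median, which shifted every gene of this comparison alike by 0.33, gave 0.39 and 0.12, so the sign of the IGKV10-96 value rests on where zero is set. None of the 4 had genotypes that did not overlap, against 8.65% of the genes that lay higher without overlap. Within the 2 pro-B number series the ratio of means was 1.89 and 1.10 for IGKV19-93, 1.74 and 1.38 for IGKV10-95, 1.26 and 0.828 for IGKV10-94, and 0.822 and 0.918 for IGKV10-96. Leaving out any 1 of Wapl+/+ replicates 1, 3 and 5 or of ∆P1,2 replicates 1, 2, 3 and 6 ended the call of IGKV19-93, with a log2 fold change of 0.44 to 0.55 then. A pseudocount of 0.01 in place of 0.05 also ended it, at 0.56 (SE 0.19).

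**Figure D2:**
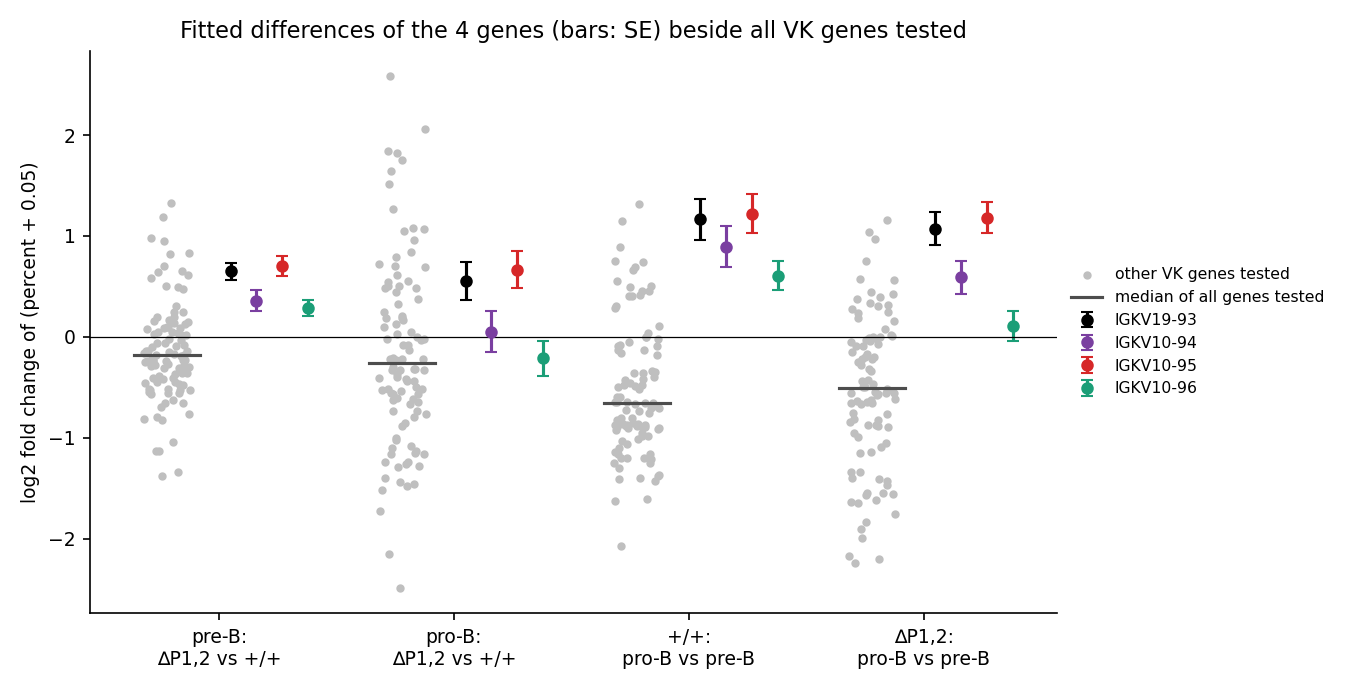
Log2 fold changes of percentage plus 0.05 (vertical axis) in 4 comparisons, with coloured points and SE bars for the 4 genes, grey points for the other VK genes tested and a line at the median of all genes tested. IGKV19-93 and IGKV10-95 lie between 0.56 and 1.22 in each comparison, while IGKV10-96 lies between −0.21 and 0.61.

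The stage comparison used the same libraries the other way round, so each group enters 2 comparisons. In Wapl+/+ cells the log2 fold change of pro-B against pre-B was 1.17 (SE 0.20) for IGKV19-93, 0.89 (0.20) for IGKV10-94, 1.22 (0.19) for IGKV10-95 and 0.61 (0.15) for IGKV10-96, beside a median of −0.65 over the 105 genes tested. All 4 were called higher, and 10.5% of the genes tested were. All 4 also lay higher in pro-B cells without overlap of the stages, again as 10.5% of the genes did. They were in places 2 (IGKV10-95), 3 (IGKV19-93), 5 (IGKV10-94) and 11 (IGKV10-96) by log2 fold change. Only 1 number series holds both stages, and in it the ratio of means was 2.82 for IGKV19-93, 2.25 for IGKV10-94, 2.52 for IGKV10-95 and 1.53 for IGKV10-96. The calls of IGKV10-94 and IGKV10-96 were lost when pre-B replicate 2, 3 or 4 was left out, with log2 fold changes of 0.85 to 0.89 and of 0.58 to 0.59. The other 2 number series hold 1 stage each, so series and stage are partly confounded. With the series as a covariate, IGKV10-94, IGKV10-95 and IGKV10-96 had log2 fold changes of 1.11 (SE 0.30), 1.24 (0.31) and 0.59 (0.22) and were no longer called.

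In ∆P1,2 cells the log2 fold change of pro-B against pre-B was 1.07 (SE 0.16) for IGKV19-93, 0.59 (0.16) for IGKV10-94, 1.18 (0.15) for IGKV10-95 and 0.11 (0.15) for IGKV10-96. The first 3 were called higher, as were 12% of the 100 genes tested, whose median was −0.51, and IGKV10-95 had the largest log2 fold change of all of them. IGKV19-93 and IGKV10-95 had stages that did not overlap, as had 8% of the genes on the higher side. In the 1 number series with both stages the ratio of means was 1.77 for IGKV19-93, 1.94 for IGKV10-95, 1.23 for IGKV10-94 and 1.09 for IGKV10-96. With the number series as a covariate, the log2 fold change of IGKV10-94 was 0.28 (SE 0.21) and was no longer called. With each library centred on its median, that of IGKV10-96 was 0.72 (SE 0.15) and was then called.

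Whether the genotype difference itself differed between the stages was fitted as an interaction. The pro-B minus pre-B difference of the genotype log2 fold changes was −0.093 (SE 0.25) for IGKV19-93, −0.30 (0.27) for IGKV10-94, −0.039 (0.25) for IGKV10-95 and −0.50 (0.22) for IGKV10-96. None of the 4 was called in limma, where 1.89% of the 106 genes tested were, and 9 of the 106 had an unadjusted p below 0.05, IGKV10-96 among them.

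The V10 genes changed places among themselves. IGKV10-95 was used more than IGKV10-94 in all 20 libraries, and IGKV10-96 more than IGKV10-94 likewise. IGKV10-95 was used more than IGKV10-96 in 0 of 4 Wapl+/+ and 0 of 4 ∆P1,2 pre-B libraries, in 3 of 6 Wapl+/+ pro-B libraries and in 6 of 6 ∆P1,2 pro-B libraries. The ratio of IGKV10-95 to IGKV10-96 was 0.592, 0.680, 0.674 and 0.631 in the Wapl+/+ pre-B libraries and 0.710, 0.998, 0.822 and 0.979 in the ∆P1,2 pre-B libraries. It reached from 0.698 to 1.36 in Wapl+/+ pro-B and from 1.35 to 2.55 in ∆P1,2 pro-B libraries, which overlapped by less than 0.01. The ratio of IGKV10-95 to IGKV10-94 was 1.25 to 1.44 and 1.51 to 2.18 in the pre-B groups and 1.33 to 2.05 and 2.14 to 3.25 in the pro-B groups, with no overlap between genotypes at either stage. A split of joints between IGKV10-94 and IGKV10-95 is less certain, and how often other pairs of VK genes separate was not counted. Of the joints of the 3 V10 genes, IGKV10-95 thus held 28.7% to 31.5% in Wapl+/+ pre-B, 32.6% to 40.7% in ∆P1,2 pre-B, 33.7% to 44.5% in Wapl+/+ pro-B and 45.3% to 57.1% in ∆P1,2 pro-B libraries.

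**Figure D3:**
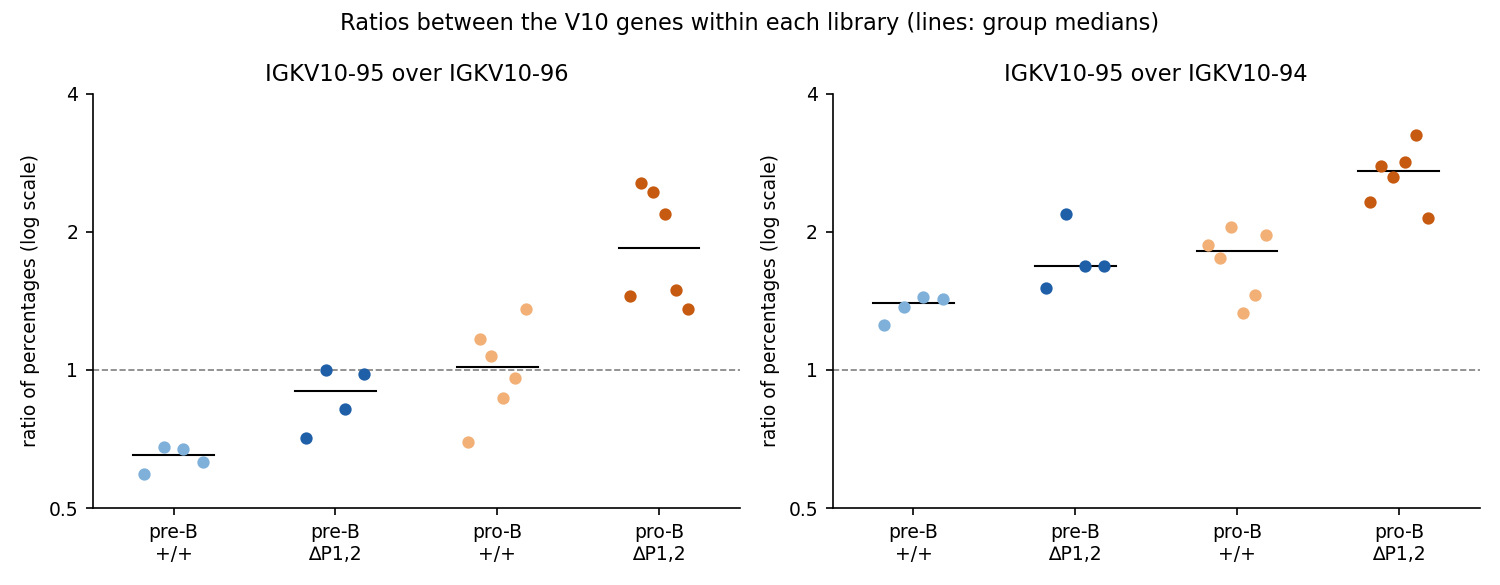
Ratio of IGKV10-95 to IGKV10-96 (left) and to IGKV10-94 (right) in each library on a log axis, with 1 point per library and a line at each group median. On the left no pre-B library reaches 1 and no ∆P1,2 pro-B library lies below 1.35, and on the right the genotypes do not overlap within a stage. The pair on the right is the one whose split of joints is less certain.

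Orientation was also set beside the fold changes of all VK genes, as a description. In pre-B cells the median log2 fold change of ∆P1,2 against Wapl+/+ was −0.23 over the 40 genes tested that point the same way as the JK segments and −0.17 over the 66 that point the other way. In pro-B cells these medians were −0.42 over 38 genes and −0.21 over 65. The fold changes of IGKV10-95, at 0.70 and 0.66, were thus above the median of the genes in its orientation at both stages. IGKV19-93 and the other 2 V10 genes point the other way and had fold changes of 0.65, 0.36 and 0.29 in pre-B cells. In pro-B cells theirs were 0.56, 0.053 and −0.21, the last of which is itself the median of the 65 genes in its orientation.

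IGKV19-93 was compared with the V10 genes together. Its percentage divided by their sum was 0.649 to 0.717 in Wapl+/+ pre-B, 0.743 to 0.813 in ∆P1,2 pre-B, 0.615 to 1.15 in Wapl+/+ pro-B and 0.900 to 1.12 in ∆P1,2 pro-B libraries. It exceeded the 3 V10 genes together in 0 of 8 pre-B libraries, in 1 of 6 Wapl+/+ and in 4 of 6 ∆P1,2 pro-B libraries.

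Over the 20 libraries, the VK genes whose percentages followed a member most closely were ranked by Spearman's rho among 105 other genes with a mean of at least 0.05%. These values describe libraries that fall into 4 groups and share a fixed sum. IGKV10-95 was first for IGKV19-93 (rho 0.919), followed by IGKV10-94 (0.892) and IGKV1-110 (0.887). For IGKV10-95 the order was IGKV4-86 (0.928), IGKV19-93 (0.919) and IGKV10-94 (0.823). For IGKV10-94 it was IGKV19-93 (0.892), IGKV14-111 (0.863) and IGKV10-95 (0.823). IGKV10-96 stood apart, with 0.675 for IGKV10-94, 0.630 for IGKV1-135 and 0.614 for IGKV15-103, and it was in place 12 for IGKV19-93 (0.531). IGKV4-86 had means of 1.07% and 1.95% in Wapl+/+ and ∆P1,2 pre-B cells and of 2.07% and 3.38% in pro-B cells, an order of groups like that of IGKV10-95.

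The 13 neighbouring VK genes were examined as a list, 6 on the JK side, 3 between the members and 4 on the distal side. The 3 between the members, IGKV2-93-1, IGKV2-95-1 and IGKV2-95-2, were at 0 in all 20 libraries, as were IGKV13-89-1 and IGKV15-97. In pre-B cells 8 of the 13 were tested, and 4 were higher and 3 lower in ∆P1,2 libraries, where 21.5% of all genes tested were higher and 45.8% lower. All 4 that rose lie on the JK side, where 5 were tested, and the 3 that fell are the 3 tested on the distal side. IGKV4-92, next to IGKV19-93, rose the most, from 0.449% ± 0.0237 to 1.22% ± 0.245 (n = 4 each, log2 fold change 1.33, SE 0.11, limma adjusted p 5.8e-08). IGKV1-88 rose from 1.40% ± 0.0897 to 2.83% ± 0.407 (log2 fold change 0.98, SE 0.095, adjusted p 2.0e-07). IGKV12-98, the neighbour of IGKV10-96 on the distal side among the genes in use, fell from 0.532% ± 0.0419 to 0.439% ± 0.0501 (log2 fold change −0.25, SE 0.098, adjusted p 0.030), a call that was lost with median centring, with the 4 genes left out of the denominator and without any 1 of Wapl+/+ replicates 1, 2 and 3 and ∆P1,2 replicate 2, at −0.24 to −0.20. The pre-B fold changes of the members were 0.65, 0.36, 0.70 and 0.29 in the order from the JK side. They lie between those of IGKV4-92 and IGKV12-98 but form no even slope. IGKV4-90 on the JK side had 0.022, below all 4 members.

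In pro-B cells 3 of the 5 tested JK-side neighbours were higher in ∆P1,2 libraries and 0 of the 3 distal ones passed limma in either direction, with 1 (IGKV12-98) at an unadjusted p below 0.05. Over all genes tested 12.5% were higher and 13.5% lower, which is 13 and 14 genes, 17 and 5 with median centring of the libraries, and 7 and 12 with a pseudocount of 0.01. IGKV4-92 had 1.03% ± 0.594 in Wapl+/+ and 2.58% ± 0.558 in ∆P1,2 libraries (n = 6 each, log2 fold change 1.82, SE 0.65, adjusted p 0.047), and was at 0 in 1 Wapl+/+ library. This call was lost with a pseudocount of 0.01 (log2 fold change 2.22, SE 1.00) and without any 1 of Wapl+/+ replicates 1, 3 and 5 or any 1 ∆P1,2 library, at 1.72 to 1.97. The gene was still called at 1.05 (SE 0.20) without Wapl+/+ replicate 2, at 1.16 with array weights and at 1.32 without a logarithm. IGKV1-88 rose from 1.90% ± 0.311 to 3.80% ± 0.942 (log2 fold change 0.96, SE 0.19, adjusted p 0.0029). It was the only 1 of the neighbours called higher when ∆P1,2 replicate 2, 4 or 6 was left out. IGKV12-98 was called lower without Wapl+/+ replicate 4 (−1.08, SE 0.39). Between stages in Wapl+/+ cells, 0 of the 8 neighbours tested passed limma in either direction, with 1 (IGKV1-88) at an unadjusted p below 0.05, where 10.5% of all genes were higher and 8.57% lower (11 and 9 genes, and 15 and 0 with centring). With median centring (log2 fold change 0.76), array weights (0.41) or the 4 genes left out of the denominator (0.54), IGKV1-88 was called higher. It was also called without pro-B replicate 2 or 3. IGKV4-92 was called higher without pro-B replicate 2 (1.33, SE 0.21) and with array weights (1.15, SE 0.21), where 1 neighbour was called lower. In ∆P1,2 cells IGKV4-92 was higher in pro-B cells (log2 fold change 1.04, SE 0.16, adjusted p 7.4e-05) and IGKV12-98 was lower (−0.81, SE 0.28, adjusted p 0.024; not called without any 1 of pre-B replicates 1, 3 and 4, with median centring at −0.21 or with the number series at −0.54), and the other 5 tested did not pass, where 12% of all genes were higher and 42% lower (12 and 42 genes, and 33 and 19 with centring). Here IGKV1-88 was called higher with centring (1.00), array weights (0.44) or the 4 genes left out of the denominator (0.55). The same held without pro-B replicate 1 or 5. With centring 3 neighbours were called higher and 0 lower, and with array weights 2 and 2.

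**Figure D4:**
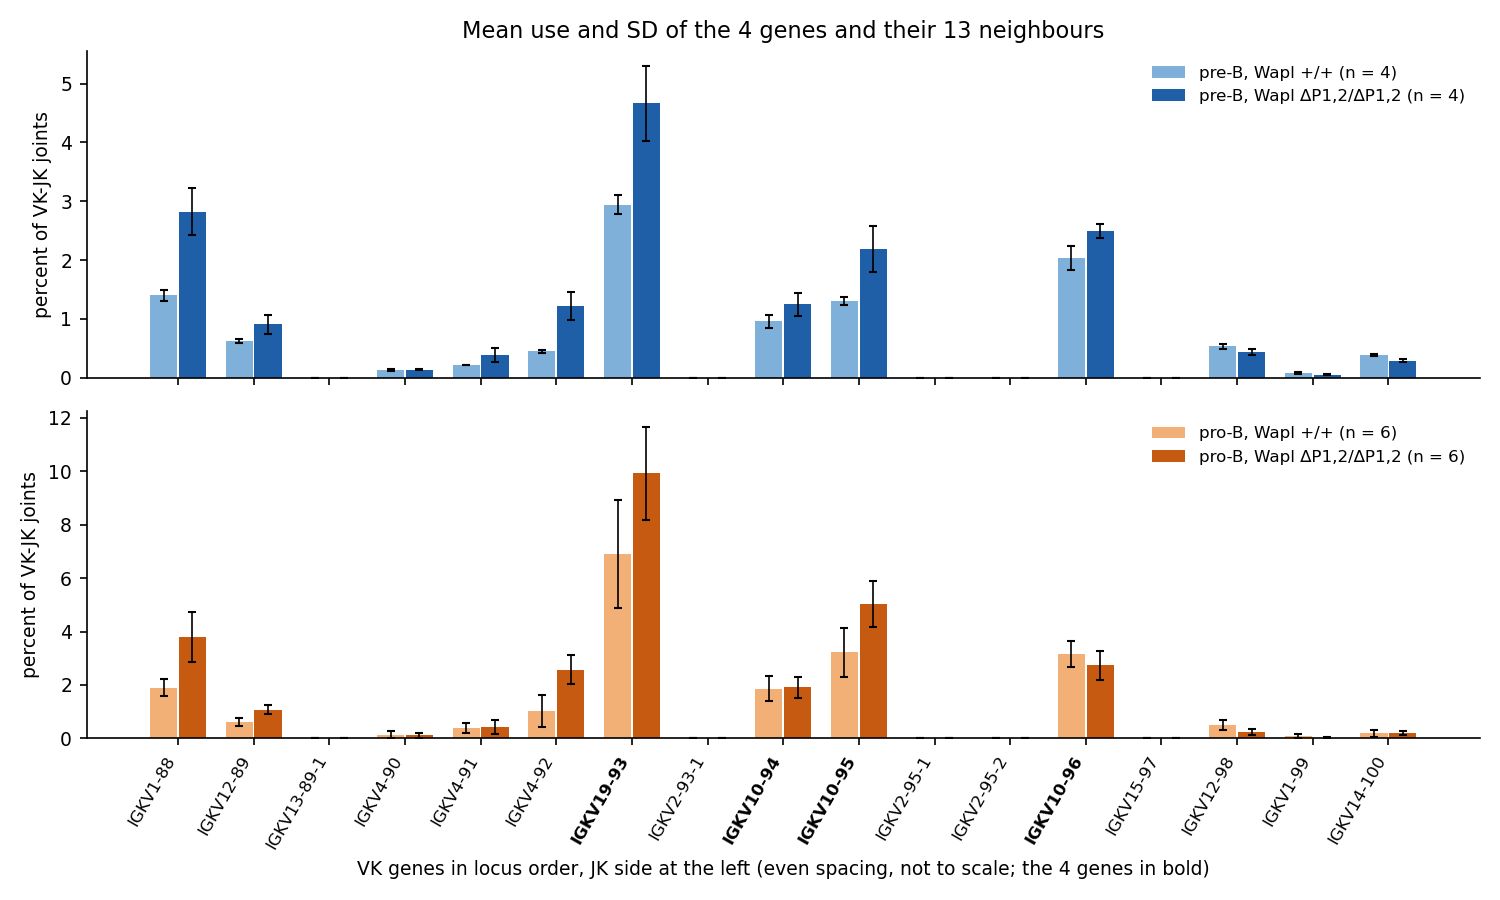
Mean percentage of VK-JK joints with SD (bars and error bars, which are drawn no lower than 0) of the 4 genes and their 13 neighbours in locus order, evenly spaced, for pre-B (upper, n = 4 per genotype) and pro-B cells (lower, n = 6). IGKV19-93 is the tallest in each group, and the genes between the members are at 0.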

How the data were processed

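VDJ-seq of Igk was analysed for 20 libraries in 4 groups given by the labels. The authors sheared genomic DNA, ligated adapters with UMI sequences, extended biotinylated JK primers, captured and amplified the products, and ran paired-end MiSeq sequencing. The deposited files of the authors hold 1 value per VK gene and library, named normalized counts, which are not whole numbers and refer to a total that is not stated, so depth is unknown. R 3.3.3 is among the tools in the submitters' processing notes, and the assignment of reads that fit several genes is not given in the sources used here. For H3K27ac the authors deposited a peak list on mm9.

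Values were divided by their sum over the 163 VK genes of a library and multiplied by 100. Fits used limma 3.58.1 (empirical Bayes trend, R 4.3.3) on log2(percentage + 0.05). A gene entered where it averaged 0.05% or more over the libraries of the comparison, and no other libraries were included. p-values were adjusted by Benjamini-Hochberg, with a threshold of 0.05. The fits were tested on simulated data. p-values measure the spread between libraries. The members, lists and tests were chosen with earlier results of these data known. Named were the 4 members, a list of 13 neighbours, genes used more than a member where ranks are given, and the 3 genes closest to each member by Spearman's rho. Signals were sought within 60 bases around the listed 3′ end as CAC-heptamer, 12 bases and nonamer, and sequences were read from the NCBIM37 (mm9) genome, with spans from the study's gene list and exons from the GENCODE annotation. Alignments used Biopython 1.88, and figures matplotlib 3.10.9. Alternatives were pseudocounts of 0.2 and 0.01, no filter, no logarithm, a denominator without the 4 genes, median centring, the number series as covariate, array weights, each library left out and another origin for distances. Igh, Hi-C and JK use were not analysed here.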

Additional observations from a re-analysis of the deposited data

Results flagged for a closer look

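Values far from the rest of their group were sought in 36 groups of values, of which chance flags about 1 in 20, and 2 were found. IGKV10-94 was used in 1.54% of joints in ∆P1,2 pre-B replicate 4, against at most 1.18% in the other 3 libraries, and the gap was 0.857 of the group's range. This library also had the highest percentages of IGKV19-93 (5.51%), IGKV10-95 (2.59%) and IGKV10-96 (2.65%) of its group. IGKV10-96 was used in 2.35% of joints in Wapl+/+ pre-B replicate 1, against at most 1.96% in the other 3, and the gap was 0.917 of the range. This library was likewise the highest of its group for all 4 genes, and it is the one that brings IGKV10-96 close to the ∆P1,2 libraries. The cause was not tested for either library.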

How the results depend on the processing

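The members' log2 fold changes in the 4 comparisons kept their sign in 284 of 288 alternative fits, and no called value changed sign. Leaving out 1 library gave 59 to 76 genes called in the pre-B genotype comparison, 16 to 49 in the pro-B one, 3 to 44 between stages in Wapl+/+, 44 to 58 between stages in ∆P1,2 and 2 to 10 for the interaction. Of the Wapl+/+ stage comparison, with 20 genes called, 6, 4, 3 and 3 were left without pre-B replicate 1, 2, 3 and 4, 44 were called without pro-B replicate 2 and 12 without pro-B replicate 4. Of the pro-B genotype comparison, with 27 called, 49 were called without Wapl+/+ replicate 2 and 16 without ∆P1,2 replicate 2, and the interaction went from 2 to 10 without Wapl+/+ pro-B replicate 2. Array weights gave 49 genes in the pro-B genotype comparison, 63 between stages in Wapl+/+ and 19 for the interaction. The number series as covariate gave 3 genes between stages in Wapl+/+ and 19 in ∆P1,2 (54 without it), where IGKV19-93 became 0.82 and IGKV10-94 0.28. In Wapl+/+ it ended the calls of IGKV10-94, IGKV10-95 and IGKV10-96, at log2 fold changes of 1.11, 1.24 and 0.59. Percentages without a logarithm gave 39 genes between stages in Wapl+/+ and 6 for the interaction. Centring each library on its median shifted all genes of a comparison alike, by 0.021 and 0.33 between genotypes in pre-B and pro-B cells, 0.35 and 0.61 between stages in Wapl+/+ and ∆P1,2, and 0.40 for the interaction, and so moved the zero point and not the members against the rest. IGKV10-94, IGKV10-95 and IGKV10-96 became 0.39, 1.00 and 0.12 in the pro-B genotype comparison, so that the uncalled value of IGKV10-96 turned positive, and 1.24, 1.57 and 0.95 between stages in Wapl+/+. The 4 genes became 1.68, 1.20, 1.79 and 0.72 between stages in ∆P1,2, where IGKV10-96 was then called, and 0.31, 0.10, 0.36 and −0.095 for the interaction, where 1 gene was called. The causes were not tested. No paired analysis was possible because the labels carry no replicate numbers that pair single libraries, and the number series, fitted as a covariate, was the only block. Distances to peaks moved by less than 0.5 kb when measured from the 5′ end. The step size of the pro-B values limits what their percentages can show, most of all in Wapl+/+ replicate 2.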
